A study of Mus musculus with 4 samples.

Results

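The genes described here encode the proteasome, the protease that degrades proteins marked with ubiquitin, together with its activators and assembly chaperones. The rule that chose them uses the gene symbol: every probe set whose single gene symbol in the array's annotation is Psm followed by a letter from a to g and a digit. The rule found 58 probe sets of 46 genes, out of 12422 probe sets of the whole array and 8251 genes with a probe set of their own, and 51 of them, of 43 genes, had a mean signal above the filter on dim probe sets. Of the 46 genes, 44 are proteasome subunits, activators or chaperones. The other two, Psmc3ip and Psme3ip1, match by spelling only: Psmc3ip is a meiotic recombination factor and Psme3ip1 encodes a protein that binds the activator subunit Psme3. Psma8, the testis form of an alpha subunit, Psmb11, the thymic catalytic subunit, and the inhibitor Psmf1 were not analysed here.

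The proteasome core is a barrel of stacked rings, with alpha subunits at the ends and beta subunits inside, some of which carry the catalytic threonine. A regulatory particle with a ring of ATPases unfolds substrates and feeds them into the barrel, and other activators can take its place. Cells exposed to interferon replace the constitutive catalytic subunits with inducible ones, forming the immunoproteasome, which favours peptides for antigen presentation. In the testis the proteasome is known for protein turnover during spermatogenesis, and the activator Psme4 for the removal of histones in elongating spermatids.

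Total RNA of whole testes from hypogonadal (hpg) mice, which lack gonadotropin-releasing hormone and so make little testosterone, was measured on 4 one-colour oligonucleotide arrays. All 4 samples came from animals given testosterone propionate, an injectable testosterone ester, followed by its withdrawal. T+O is a group of 1 array, labelled as given the ester for 2 weeks and then withdrawn. T+T is a group of 3 arrays, titled as such, of which replicate 1 is labelled as treated again for 4 hours after withdrawal, with no duration given for its earlier treatment. Replicates 2 and 3 are labelled as treated for 2 weeks and withdrawn, with no later treatment stated, so their place in T+T rests on the title alone. Age, strain and route are not given in the labels, nor whether each array holds 1 animal or a pool, so p-values measure only the spread between these arrays. A testis that never received testosterone was not analysed here, so the earlier treatment and the absence of gonadotropin-releasing hormone are shared by every array.

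The arrays differed in overall level as deposited, with medians from 25.4 to 48.3, and were scaled to a common trimmed mean before comparison. The deposited median was 37.45 in T+O and 29.3, 25.4 and 48.3 in T+T replicates 1, 2 and 3. T+O and T+T replicate 3 thus shared the higher level. Markers of the labelled tissue were present: all 8 germ cell genes, all 6 Sertoli cell genes and 5 of 6 Leydig cell genes with a probe set lay above the filter level of 22.7. The T+O array differed from all 3 T+T arrays in how far the signal at the 3′ end exceeded that at the 5′ end for 3 of 4 control genes, a sign of RNA or labelling quality. The 3′ over 5′ ratio was 1.20 in T+O against 0.809 to 0.886 in T+T for Gapdh, 3.76 against 1.76 to 2.00 for pyruvate carboxylase, and 9.50 against 1.52 to 3.39 for the transferrin receptor. For Actb it was 1.53, inside the T+T range of 1.17 to 1.66. These values move with the T+O array in every comparison that follows, and their part in the differences was not tested.

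No proteasome probe set passed the adjusted threshold of 0.05 between T+T and T+O (limma, lowest adjusted p = 0.15), and 2 of 7453 probe sets did over the whole array (0.0268%). Most members lay close to T+O: 41 of 51 (80.4%) differed by less than 0.25 on the log2 scale, against 57.8% of all probe sets. The median difference of the 51 members was 0.010, beside 0.026 over all 7453 probe sets. A small set stood apart. The activator Psme4, the ATPase Psmc6, the scaffold subunit Psmd1 and a probe set of the chaperone Psmg3 lay at least 1.5-fold below T+O on all 3 T+T arrays, as 2.21% of all probe sets did. The activator Psme3 lay below T+O at a smaller distance, and the catalytic subunit Psmb6 above it. At an unadjusted p under 0.05 limma gave 6 members (11.8%), against 7.80% of all probe sets, and these 6 are the probe sets just named. Here and throughout, differences are on the log2(signal + 10) scale. In whole testis, fewer cells of a type and less RNA per cell cannot be told apart.

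**Figure D1:**
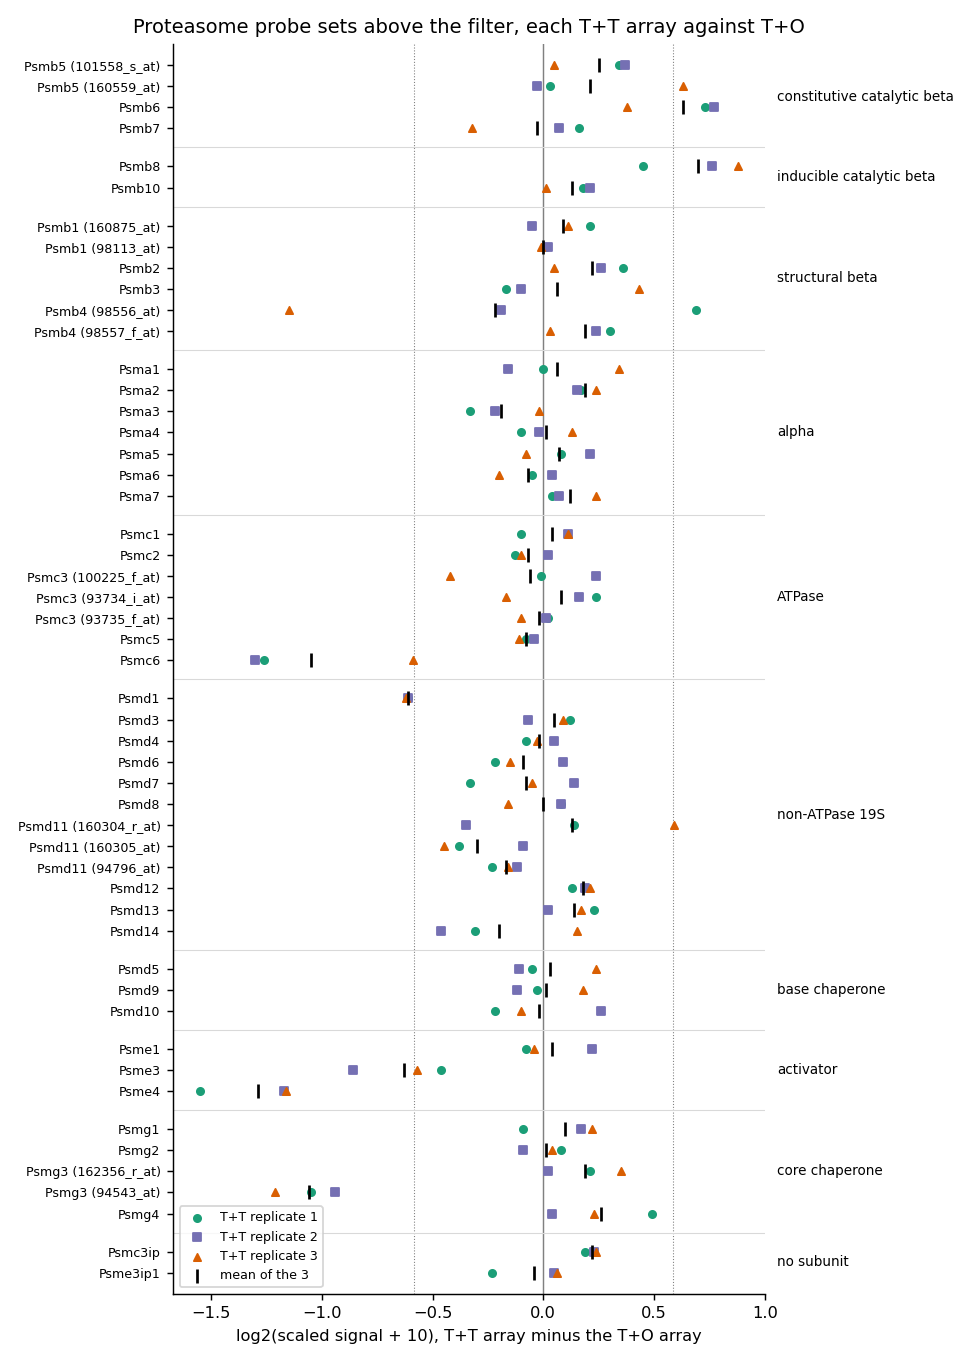
Difference of each T+T array from the T+O array on the log2(scaled signal + 10) scale (x axis) for the 51 proteasome probe sets above the filter (y axis, grouped by role); circles, squares and triangles are T+T replicates 1, 2 and 3, the black bar is their mean, and dotted lines mark 1.5-fold. Most members sit near 0, while Psme4, Psmc6, Psmd1 and the dimmer Psmg3 probe set have all 3 arrays beyond 1.5-fold on the lower side.

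The region before the start of the genes that stood apart is shown so that they can be read side by side, except for Psmg3, whose probe sets differed in direction. Sequences are the 250 bases before the RefSeq gene start on GRCm38.p6, plus strand, 5′ to 3′. Capitals mark matches on either strand to any of 6 motifs: the CCAAT box (CCAAT), the GC box (GGGCGG), the ETS core (CCGGAA), the antioxidant response core (TGACNNNGC), the hexamer of the androgen response element (AGAACA) and the cyclic AMP response element (TGACGTCA).
Psme4, chr11:30771525-30771774: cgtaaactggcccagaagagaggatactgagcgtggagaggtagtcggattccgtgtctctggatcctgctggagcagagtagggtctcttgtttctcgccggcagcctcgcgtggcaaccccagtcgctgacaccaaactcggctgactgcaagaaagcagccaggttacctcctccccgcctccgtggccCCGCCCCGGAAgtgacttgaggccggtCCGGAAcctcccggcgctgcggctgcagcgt
Psmc6, chr14:45329574-45329823: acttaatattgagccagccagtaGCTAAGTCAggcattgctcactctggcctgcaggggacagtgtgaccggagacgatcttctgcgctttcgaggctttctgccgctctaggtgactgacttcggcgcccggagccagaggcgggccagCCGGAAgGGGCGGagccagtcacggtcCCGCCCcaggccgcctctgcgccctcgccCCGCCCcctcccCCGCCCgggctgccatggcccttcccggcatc
Psmd1, chr1:86064369-86064618: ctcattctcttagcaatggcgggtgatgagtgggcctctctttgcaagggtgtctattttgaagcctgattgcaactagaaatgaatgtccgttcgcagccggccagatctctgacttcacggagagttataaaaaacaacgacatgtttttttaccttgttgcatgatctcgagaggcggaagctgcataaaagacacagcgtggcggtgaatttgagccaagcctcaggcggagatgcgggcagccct
Psme3, chr11:101315963-101316212: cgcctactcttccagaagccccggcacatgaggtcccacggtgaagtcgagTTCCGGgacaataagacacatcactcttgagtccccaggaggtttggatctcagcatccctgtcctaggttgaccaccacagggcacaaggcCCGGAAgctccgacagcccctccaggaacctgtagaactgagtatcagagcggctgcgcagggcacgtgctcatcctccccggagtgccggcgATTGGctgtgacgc
Psmb6, chr11:70525107-70525356: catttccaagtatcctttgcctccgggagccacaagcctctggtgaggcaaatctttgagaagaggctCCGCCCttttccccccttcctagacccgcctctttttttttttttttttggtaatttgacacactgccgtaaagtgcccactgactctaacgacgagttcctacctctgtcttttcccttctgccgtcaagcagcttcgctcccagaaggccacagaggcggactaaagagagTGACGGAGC

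Psme4 and Psme3 each held 2 ETS cores and Psmc6 held 1, while none matched in Psmd1 or Psmb6. In Psme4 the cores began 53 and 31 bases before the start, and the one at 53 shares a base with a GC box. Psmc6 held 4 GC boxes, Psme4 and Psmb6 held 1 each, and Psmc6 and Psmb6 each held 1 antioxidant response core. The window of Psmd1 held none of the 6 motifs. No AGAACA or TGACGTCA match lay in these 5 windows. Of the 44 proteasome genes, 37 had an entry in the RefSeq promoter table, with 39 windows among them. An ETS core was present in 16 of the 37 (43.2%), against 12.0% of all 32851 promoter windows of this length. A GC box was present in 21 (56.8%, against 32.7%), a CCAAT box in 13 (35.1%, against 33.8%), an antioxidant response core in 5 (13.5%, against 10.2%) and AGAACA in 6 (16.2%, against 16.1%). TGACGTCA matched in 0 of 37, against 1.55% of all windows. A gene with several windows was counted once. These shares describe letters in a window.

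Among the constitutive catalytic subunits, Psmb6 stood highest. Psmb6 carries the caspase-like activity of the core. Its scaled signal was 606 on the T+O array and 1015, 1044 and 791 on T+T replicates 1, 2 and 3. All T+T arrays lay above T+O, with T+T replicate 3 the nearest to it. The log2 difference was 0.63 ± 0.21 (SE; limma, adjusted p = 0.48). Psmb5, which carries the chymotrypsin-like activity, had 390.3 in T+O and 496, 507 and 405 in T+T on its brighter probe set. Again all T+T arrays were above T+O, and replicate 3 by only 0.05 on the log2 scale; the mean difference was 0.25 ± 0.20 (SE). Its other probe set had 54.8 in T+O and 56.4, 53.3 and 90.4 in T+T, so the groups overlapped and only replicate 3 was clearly higher. Psmb7, with the trypsin-like activity, had 424 in T+O and 474, 446 and 338 in T+T. The T+O array lay inside the T+T range, and the difference was -0.03 ± 0.23 (SE).

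The inducible subunits that replace these in the immunoproteasome were dim. Psmb8, the counterpart of Psmb5, had 14.4 in T+O and 23.2, 31.2 and 34.9 in T+T, with every T+T array above T+O. The T+O value lay under the filter level of 22.7, and the log2 difference of 0.70 ± 0.38 (SE; limma, adjusted p = 0.73) became 0.39 with an offset of 35 and 0.94 with an offset of 2. With T+T replicate 1 set against the other 3 arrays it was -0.10. Psmb9, the counterpart of Psmb6, did not pass the filter. Its signal was 5.85 in T+O and 8.17, 16.2 and 14.3 in T+T, all under the filter level. Psmb10, the counterpart of Psmb7, had 100.3 in T+O against 115, 117 and 101. Its T+T arrays were all above T+O, replicate 3 by 0.01 on the log2 scale, and the mean difference was 0.13 ± 0.21 (SE).

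Immune cell and interferon genes are given beside the inducible subunits because those cells and that signal are known sources of them. All 12 macrophage and other immune markers had a probe set and 10 lay above the filter. The summed signal of the 12 was 624 in T+O and 651 to 838 in T+T. Of the 10 above the filter, 3 had all T+T arrays above T+O and 1 had all below, against 29.5% and 23.7% of all probe sets. Of 8 interferon-induced genes, 7 had a probe set and only Irf1 and Irf7 lay above the filter, and the sum was 114 in T+O and 145 to 164 in T+T. No marker of either list was at 0 on any array, while the leukocyte marker Ptprc and the macrophage marker Adgre1 were below the filter level. The part of these cells in the Psmb8 values was not tested.

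The structural beta subunits lay close to T+O, with a median difference of 0.073 over 6 probe sets. Psmb2 was the highest of them, with 341 in T+O and 441, 409.6 and 353 in T+T, a difference of 0.22 ± 0.19 (SE). The family-marked probe set of Psmb4 had 822 against 1013, 969 and 838, and like Psmb2 its 3 T+T arrays were all above T+O. A dim probe set of the same gene had 26.2 in T+O and 48.5, 21.8 and 6.31 in T+T, so it overlapped and gave the opposite sign, at -0.22 ± 0.66 (SE). A further Psmb4 probe set, at 0.640 in T+O and 0.545 to 5.64 in T+T, did not pass the filter. Psmb1 was level on its brightest probe set, with 267 in T+O and 268, 269.7 and 265 in T+T. Its others had 160.2 against 154 to 187 and, below the filter, 10.2 against 10.8 to 20.6. Psmb3 had 425 against 377, 397 and 577, with replicate 3 alone above T+O.

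All 7 alpha subunits measured stayed within 0.25 of T+O on the log2 scale. They form the outer rings and the gate of the core. The highest was Psma2, with 392 in T+O and 443, 434 and 465 in T+T, a difference of 0.19 ± 0.17 (SE). The lowest was Psma3, with 1045 against 827, 898 and 1031, a difference of -0.19 ± 0.19 (SE), on a probe set marked for a gene family. Neither gene's T+T arrays overlapped T+O, although Psma3 on replicate 3 was within 0.02 of it on the log2 scale. Psma7 had 190.1 against 196 to 226, also all above. Psma1, Psma4, Psma5 and Psma6 overlapped, with differences between -0.07 and 0.07.

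Among probe sets above the filter, the ring of ATPases that unfolds substrates was level apart from Psmc6. Psmc6 had 389 in T+O and 157, 152 and 255 in T+T. Every T+T array was below T+O, and replicate 3 lay between the other two and T+O. The difference was -1.05 ± 0.30 (SE; limma, adjusted p = 0.38), and T+O was 2.07 times the T+T mean. In rank order Psmc6 was 109th from the lowest of 7453. Psmc1, Psmc2 and Psmc3 overlapped T+O on every probe set kept, with differences from -0.07 to 0.08. The highest was a Psmc3 probe set at 897 in T+O against 1064, 1006 and 796; the other Psmc3 probe sets had 459 against 455, 544 and 339, and 1359.9 against 1383, 1368 and 1266, with means below T+O. Psmc5 had 295 in T+O and 279, 287 and 273 in T+T on its bright probe set, a difference of -0.08 ± 0.18 (SE), and 4.48 against 4.91 to 16.5 on a probe set below the filter, which lay the other way. Psmc4 had 29.5 in T+O and 5.52, 12.6 and 19.5 in T+T and did not pass the filter. Its T+T arrays were all below T+O, with a difference of -0.86.

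Of the other subunits of the regulatory particle, Psmd1 stood lowest. Psmd1 is a large scaffold subunit at its base. It had 480.3 in T+O and 312, 312 and 308 in T+T, so the T+T arrays nearly coincided and T+O was 1.55 times their mean. The difference was -0.61 ± 0.17 (SE; limma, adjusted p = 0.38). The 3 T+T differences from T+O were -0.61, -0.61 and -0.62, close to the 1.5-fold line, and Psmd1 and Psmc6 no longer met it on all arrays with an offset of 35.

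The remaining regulatory subunits spread narrowly around T+O. Psmd12 was the highest, with 106 in T+O and 117, 122 and 124 in T+T, a difference of 0.18 ± 0.20 (SE) with all T+T arrays above. Psmd13 had 284 against 335, 288 and 320.3, also all above. Psmd11 was measured by 3 probe sets that did not share a sign. The brightest had 219 in T+O and 186, 202 and 195 in T+T, the next had 139.9 against 106, 131 and 100.04, and the dimmest had 42.3 against 47.6, 30.9 and 68.9. The brighter pair lay below T+O on all T+T arrays, with differences of -0.17 and -0.30, and the dim one overlapped. Psmd14, the deubiquitinase of the regulatory particle, had 161 against 128, 114 and 180.4, and overlapped. The ubiquitin receptor Psmd4 had 757 against 714, 786 and 739.5. Psmd3, Psmd6, Psmd7 and Psmd8 overlapped too, with differences between -0.09 and 0.05. Psmd2 did not pass the filter, at 18.7 in T+O and 6.67, 24.3 and 7.95 in T+T.

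The activators held the lowest member. Psme4, the large nuclear activator, had 831 in T+O and 278, 365 and 367 in T+T. All 3 T+T arrays lay far below T+O and near each other, and T+O was 2.47 times their mean of 336 ± 50.8 (SD, n = 3). The difference was -1.29 ± 0.21 (SE; limma, adjusted p = 0.15), lower in 3 of 3 arrays, and Psme4 was 49th from the lowest of 7453 probe sets. Without T+T replicate 1 it passed the threshold, at -1.16, in a fit of 3 arrays. That fit sets T+O against T+T replicates 2 and 3, whose descriptions, like that of T+O, state no later treatment. The share of all probe sets that passed in that fit is not given here, so Psme4 cannot be set against it. As in every fit of T+T against T+O, the spread came from T+T alone. Over all other settings with a test the adjusted p in limma ran from 0.10 to 1.00, and the difference from -1.50 to -0.77. Psme3, a nuclear activator subunit, had 158 in T+O and 112, 82.8 and 103 in T+T. Its T+T arrays were all below T+O, with a difference of -0.63 ± 0.24 (SE, limma, adjusted p = 0.57). Replicates 1 and 3 fell short of 1.5-fold, at -0.46 and -0.57, and replicate 2 was at -0.86. Psme1, a subunit of the interferon-inducible activator, overlapped, with 41.2 in T+O and 38.5, 49.8 and 39.7 in T+T. A second Psme1 probe set, below the filter, had 1.10 against 1.27, 10.2 and 12.3.

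**Figure D2:**
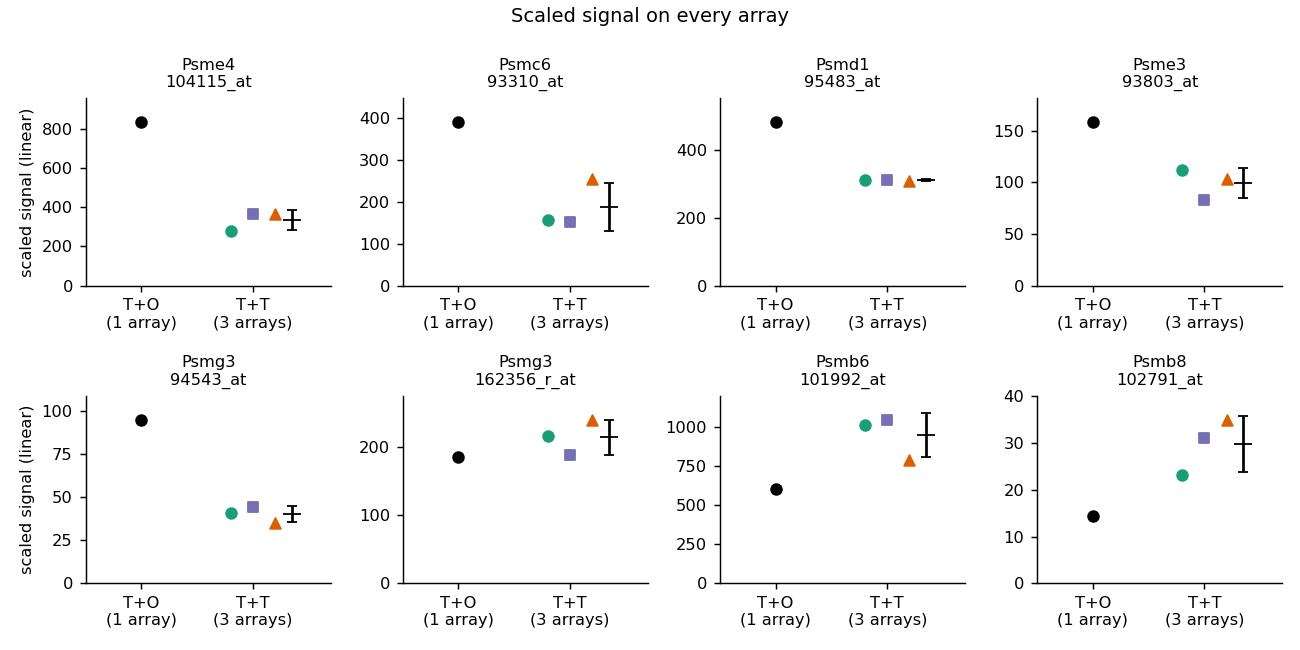
Scaled signal on a linear axis starting at 0 for 8 probe sets (panels) on the T+O array (black) and on T+T replicates 1 (circle), 2 (square) and 3 (triangle); the dash and whiskers are the T+T mean and SD. Psme4 had 831 in T+O against 278 to 367 in T+T, Psmb6 lay the other way at 606 against 791 to 1044, and the Psmg3 probe sets differed in direction.

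Germ cell markers are given beside Psme4 because of its known role in spermatids. The summed signal of 8 germ cell genes was 27802 in T+O and 28199 to 35947 in T+T. Most of that sum came from Tnp2, Prm1 and Ldhc, at 7942, 7912 and 5073 in T+O. None of the 8 passed the test (limma, lowest adjusted p = 0.78), 5 had all T+T arrays above T+O and 1 had all below. That gene was Acrv1, an acrosomal protein of spermatids, with 265.5 in T+O and 160.3, 232 and 228 in T+T, a difference of -0.36 ± 0.25 (SE; limma, adjusted p = 0.80). The part of germ cell numbers in the Psme4 values was not tested.

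The chaperones that help assemble the proteasome were mostly level. Psmg3, which acts in the formation of the alpha ring, had probe sets that disagreed. The name of the brighter carries the letter r, for probes that may cross-hybridise or met the design rules in part. The dimmer carries no such letter. On the dimmer, the signal was 94.9 in T+O and 40.8, 44.7 and 35.4 in T+T, all below, with a difference of -1.06 ± 0.27 (SE; limma, adjusted p = 0.30). On the brighter it was 184 in T+O and 215, 187 and 239 in T+T, all above, with a difference of 0.19 ± 0.21 (SE). The direction for Psmg3 is therefore uncertain. Psmg4 was the highest chaperone, with 174 in T+O and 249, 179 and 206 in T+T, a difference of 0.26 ± 0.23 (SE) with replicate 2 just above T+O. Psmg1 had 230.1 against 216, 259 and 269.6, and Psmg2 had 93.6 against 99.1, 87.3 and 96.8, and both overlapped. The chaperones of the regulatory particle, Psmd5, Psmd9 and Psmd10, all overlapped with differences of 0.03, 0.01 and -0.02. Psmd5 had 107 against 103, 98.2 and 128, and Psmd10 had 41.0 against 33.7, 51.1 and 37.6.

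The genes that match the symbol rule without being subunits were near T+O. The recombination factor Psmc3ip had 206 in T+O and 237, 244 and 245 in T+T, all above, with a difference of 0.22 ± 0.18 (SE). Psme3ip1 had 191 against 162, 199 and 199.9 and overlapped.

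Counted together, 4 of 51 members (7.84%) lay at least 1.5-fold below T+O on all 3 T+T arrays, against 2.21% of all probe sets, and none lay at least 1.5-fold above, against 1.82%. At any size, 13 members (25.5%) had all T+T arrays above T+O, against 29.5% of all probe sets, and 9 (17.6%) had all below, against 23.7%. The core and the regulatory particle differed in sign of their medians: 0.089 over 19 core probe sets, of which 8 had all T+T arrays above and 1 below, and -0.065 over 19 probe sets of the regulatory particle, with 2 above and 5 below. The difference between the medians was not tested. With each array's values left unscaled, the core median turned to -0.106 and that of the regulatory particle was -0.273, beside -0.160 over all probe sets, and 10 of 51 members had all T+T arrays on the same side of T+O, against 27.3% of all probe sets.

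**Figure D3:**
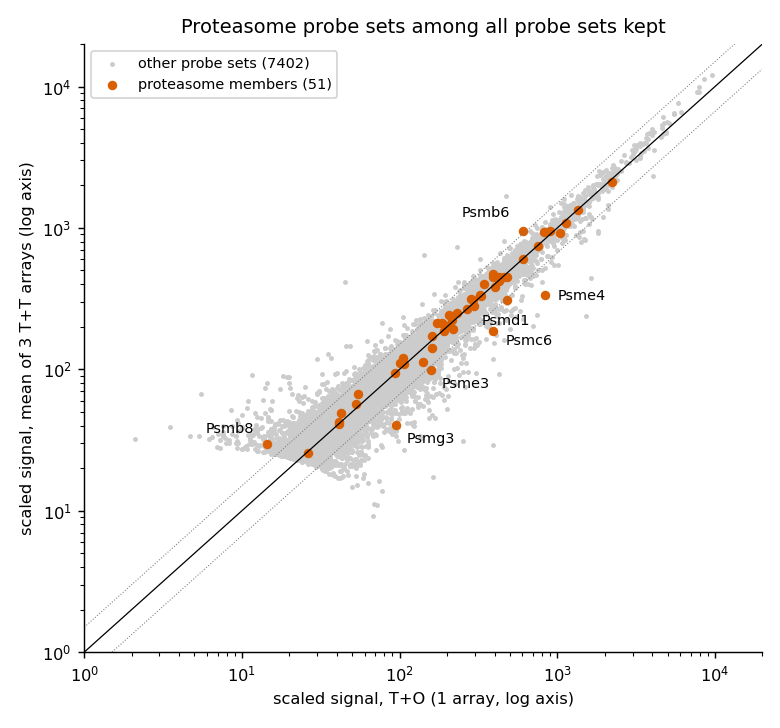
Scaled signal of the T+O array (x axis, log) against the mean of the 3 T+T arrays (y axis, log) for the 51 proteasome members (orange) and the other probe sets kept (grey), with the line of equality and dotted lines at 1.5-fold. The named members are those furthest from equality, led by Psme4 at 831 against 336.

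Members varied less between arrays than the array as a whole, and they were also brighter, with a median mean signal of 244 against 85.4. Between T+T replicates 1 and 2 the median absolute log2 difference was 0.12 over the members and 0.19 over all probe sets. Between T+T replicates 2 and 3 it was 0.21 and 0.24. The T+O array differed from T+T replicates 1, 2 and 3 by a median of 0.18, 0.14 and 0.17 over the members. These lie above the 0.12 between T+T replicates 1 and 2 and below the 0.21 of each T+T pair that includes replicate 3. Between T+O and T+T replicates 1, 2 and 3, 6, 7 and 8 members (11.8%, 13.7% and 15.7%) were at least 1.5-fold apart, against 17.8%, 15.7% and 13.8% of all probe sets. Among the T+T arrays, 1 member (1.96%) was so far apart between replicates 1 and 2, 4 (7.84%) between 1 and 3, and 6 (11.8%) between 2 and 3, against 10.2%, 16.8% and 13.5% of all probe sets. Over the brighter probe sets, above the 60th percentile, 82.2% of 45 members and 61.9% of all probe sets differed by less than 0.25 between T+T and T+O.

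**Figure D4:**
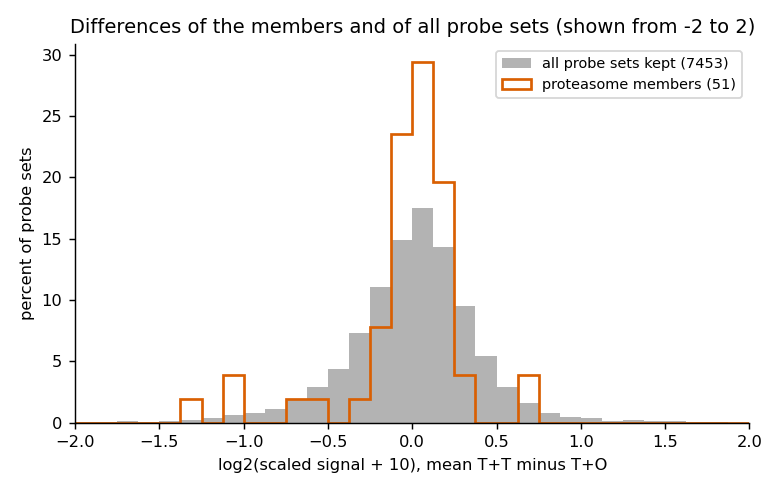
Percent of probe sets (y axis) by log2 difference of mean T+T minus T+O (x axis, bins of equal width) for the 51 proteasome members (orange outline) and all 7453 probe sets kept (grey). The members are gathered near 0, with 80.4% within 0.25 of it against 57.8% of all, and a few stand apart on the lower side down to Psme4 at -1.29.

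T+T replicate 1 and the T+O array are the pair whose titles and descriptions match. Between them 2 members were at least 1.5-fold higher in T+T replicate 1 (Psmb6 at 0.73 and the dim Psmb4 probe set at 0.69) and 4 at least 1.5-fold lower, against 6.83% and 11.0% of all probe sets. The 4 were Psme4 at -1.55, Psmc6 at -1.26, the dimmer Psmg3 probe set at -1.05 and Psmd1 at -0.61. At any size 26 members were higher and 25 lower, against 54.1% and 45.9% of all probe sets. With a single array on each side these values have no error and no test. If T+T replicates 2 and 3 had stayed withdrawn, as their descriptions read, T+T replicate 1 would stand against the other 3 arrays. On that reading 1 member was at least 1.5-fold higher than all of them (the dim Psmb4 probe set; 0.657% of all probe sets) and 0 lower (2.09%). Psme4 was then at -0.77 and Psmc6 at -0.63 (limma, adjusted p = 0.92 and 0.94). At any size 11 members lay above all 3 other arrays and 14 below all of them, against 25.6% and 26.3% of all probe sets.

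The partners of the proteasome outside the symbol rule were taken from a list of 14 symbols, of which 8 had a probe set and all 8 passed the filter. None passed the test. Of the 8, 1 was lower by 1.5-fold or more on each T+T array and 0 higher, against 2.21% and 1.82% of all probe sets. That gene was Uchl5, a deubiquitinase that docks on the regulatory particle, with 119 in T+O and 63.1, 65.7 and 75.3 in T+T. Its T+T arrays were close together and all below T+O, with a difference of -0.73 ± 0.23 (SE; limma, adjusted p = 0.46). The highest of the list, Zfand5, was at 69.2 in T+O and scattered in T+T at 40.5, 93.9 and 235. The core maturation factor Pomp had 249 in T+O against 272, 281 and 254.

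Of 11 symbols for shuttle factors and the segregase that deliver substrates, 6 had a probe set, 5 passed the filter and none passed the test. Faf1, a cofactor of the segregase Vcp, was the highest, with 196 in T+O and 293, 313 and 301 in T+T, a difference of 0.60 ± 0.18 (SE; limma, adjusted p = 0.43). Its dimmer probe sets overlapped T+O, at 110.3 against 108 to 143 and 55.0 against 41.9 to 106. The shuttle factor Rad23b was the lowest, at 177 against 130.4, 172 and 169. No single-symbol probe set was found for the ubiquitin genes listed.

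Regulators of proteasome genes were represented by 7 of 10 symbols, of which 5 passed the filter and none passed the test. Nfe2l1, the transcription factor that induces proteasome genes when the protease is impaired, had probe sets that disagreed. The brighter had 262 in T+O and 231, 283 and 257 in T+T and overlapped. The other had 69.3 in T+O and 133, 127 and 142 in T+T, all above, with a difference of 0.86 ± 0.21 (SE; limma, adjusted p = 0.28). Its direction is therefore uncertain, and the dimmer probe set was named after its values were seen. The same holds for a dimmer probe set of Mafg, at least 1.5-fold above T+O on all T+T arrays. It had 14.7 in T+O, under the filter level, and 33.0, 37.5 and 32.5 in T+T. The brighter Mafg probe set had 34.9 against 51.2, 35.2 and 36.3. Irf1, an interferon-induced activator of the inducible subunits, was the highest by brightest probe set, with 33.9 in T+O and 54.7, 48.7 and 52.5 in T+T, a difference of 0.50 ± 0.27 (SE; limma, adjusted p = 0.73).

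Antigen presentation genes, which act on the peptides the proteasome makes, had 9 of 10 symbols with a probe set and 7 above the filter, and none passed the test. Tap1, the peptide transporter gene that lies beside Psmb9, had 28.3 in T+O and 32.6, 38.2 and 43.5 in T+T on its brighter probe set, all above. Its other probe set, below the filter, had 22.9 against 7.71, 20.6 and 23.0. H2-K1, a class I molecule, was the highest by brightest probe set, at 412 in T+O against 443, 486 and 785, a difference of 0.42 ± 0.31 (SE) in which replicate 3 stood apart. Pdia3, a chaperone of class I loading, was the lowest, with 465 against 247, 435 and 319. Over all 25 genes of these lists above the filter, 10 (40%) had all T+T arrays above T+O and 5 (20%) all below, against 29.5% and 23.7% of all probe sets, with a median difference of 0.106. At an unadjusted p under 0.05 limma gave 2 of the 25 (8%), Uchl5 and Faf1, against 7.80% of all probe sets.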

How the data were processed

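The authors deposited a linear signal intensity for each probe set on each array. The software behind it was not given in the sources used here, and no detection calls were used. The 66 control probe sets were left out, and each array was scaled to the mean of the 4 trimmed means (2% removed at each end). An offset of 10, the 25th percentile of scaled values, was added before log2. Probe sets with a mean above the 40th percentile were kept (7453). T+T minus T+O was fitted over all of them with limma 3.58.1 in R 4.3.3 (lmFit, eBayes with intensity trend, two-sided, Benjamini-Hochberg over all 7453), with 2 residual degrees of freedom. T+O, a single array, was taken to vary as T+T does. With 1 array against 3, a permutation test cannot go below p = 0.25, so none is given. The number of arrays limits the precision.

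Gene symbols came from the platform annotation, and a RefSeq table of GRCm38.p6 changed no member's symbol. It held 10817 of 10833 probe sets with a single symbol by gene ID. The letters f, s, i and r in a probe set's name mark probes that may cross-hybridise or that met the design rules in part, and 40 of the 51 members kept carry none. Where a list is counted by gene, the brightest probe set stands for the gene. Members and lists were chosen with earlier results of these data known. Values on every array are given for catalytic subunits, members at least 1.5-fold to the same side on all T+T arrays, the highest and lowest of each role, and genes whose probe sets differ in sign. Promoter motifs were searched in RefSeq windows on GRCm38.p6. Alternatives were other scalings, offsets, filters, no intensity trend, another reading of the arms, leaving out each T+T array, and a block on the deposited level.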

Additional observations from a re-analysis of the deposited data

How the results depend on the processing

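No proteasome probe set passed the adjusted threshold under any setting with a test except without T+T replicate 1; leaving out 1 T+T array gave 0 to 1. The count of other ubiquitin-proteasome and antigen presentation genes past it was 0 in each of them. For the fits that left out 1 T+T array, the share of all probe sets past the threshold is not given here. Of the 4 members at least 1.5-fold to the same side, 2 (Psme4 and the dimmer Psmg3 probe set) remained with no scaling and 2 (the same probe sets) with the offset at the 50th percentile. The count was 1 with T+T replicate 1 set against the other 3 arrays, where 0.657% of all probe sets were higher and 2.09% lower. It was 8 (15.7%) with the block on the deposited level, which leaves T+T replicate 3 against T+O, against 13.8% of all probe sets. Leaving out 1 T+T array gave 4 to 5. The 22 members to the same side at any size became 10 with no scaling and 26 to 36 leaving out 1 T+T array. Any probe set meets both conditions more easily with fewer T+T arrays. The share of all probe sets that did so when 1 T+T array was left out is not given here. With the block, and for T+T replicate 1 against T+O alone, all 51 lie on a side by construction.

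The median member difference of 0.010 was -0.178 with no scaling, where that of all probe sets was -0.160. It was -0.017 after median scaling, 0.032 after quantile scaling, 0.031 with no filter, -0.030 with T+T replicate 1 against the other 3 arrays, 0.027 with the block and 0.007 to 0.042 leaving out 1 T+T array. Signs were compared only for members above the filter whose T+T arrays all lay on the same side of T+O. Members that overlapped T+O were left out, so further signs may have turned. Those that turned with no scaling were Psma2 (-0.020), Psma7 (-0.084), Psmb10 (-0.060), the brighter Psmb4 probe set (-0.022), Psmd12 (-0.016), Psmd13 (-0.062) and the brighter Psmg3 probe set (-0.0043). Among the same members, those that turned with T+T replicate 1 against the other 3 arrays were Psma7 (-0.064), Psmb8 (-0.10), Psmd12 (-0.0026) and Psme3 (0.011). The cause was not tested. No paired analysis was possible because T+O is a single array whose number pairs it with nothing.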

Other observations

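A further 2 probe sets carry the symbols of both Psme2, a subunit of the interferon-inducible activator, and its copy Psme2b, and were no members. The brighter had a scaled signal of 119 in T+O and 132, 108 and 137 in T+T, so the groups overlapped. The other, whose mean did not pass the filter, had 9.69 against 16.1, 15.0 and 28.6.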
